A study of Saccharomyces cerevisiae with 8 samples.

Results

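The 5' ends of yeast RNA that fell just behind the coding region of a gene were examined under 3 decapping enzymes and in their control. A position was included when it lay on a nuclear chromosome and on the strand of the gene, 1 to 150 nt downstream of a stop codon of a protein-coding gene in the R64 annotation. Positions inside a coding sequence on either strand, inside an annotated noncoding gene, or within 400 nt upstream of a start codon on the same strand were left out. The choice used coordinates only and no measured value. It kept 32730 of the 1643818 positions with a tag, a tag being 1 counted 5' end, and these positions held 59404 tags. The annotation has 6002 stop codons on nuclear chromosomes, of which 4470 had at least 1 eligible nt, 4169 at least 50 and 3021 all 150. For each stop codon the eligible positions form a window, and 3435 of the 4470 windows had a tag in at least 1 library.

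The sequence behind a yeast stop codon is normally the 3' untranslated region, which ends at the poly(A) site and carries no capped end of the gene's own mRNA. A polyadenylated RNA can begin there in several ways: from a promoter at the gene's end that starts an unannotated transcript, from a long leader of the next gene, or as the shortened remnant of an mRNA being degraded. RNA polymerase II starts are protected by a cap, whereas the ends that decay enzymes leave carry a phosphate or a hydroxyl. Alkaline phosphatase removes exposed phosphates, so that a 5' end can be ligated afterwards only if a pyrophosphatase opens a cap, apart from ends that escaped the phosphatase or were made after it. Yeast initiation favours a purine preceded by a pyrimidine.

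All RNA came from BY4741, labelled Mat a; his3delta1 leu2delta0 ura3delta0 met15delta0, a laboratory strain grown at 30 °C in rich glucose medium to mid-log phase. Calf intestinal phosphatase treatment of 60 µg of total RNA came before the division into 4 aliquots, which is shared by all groups including the control. One aliquot received 5 units of Decapping Pyrophosphohydrolase, one 5 units of Cap-Clip Acid Pyrophosphatase, one 5 units of Tobacco Acid Pyrophosphatase (TAP), and one no enzyme. Each group holds 2 libraries, numbered 1 and 2 for the biological replicate.

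Depth and background differed between libraries. The libraries held 1789278 and 3479399 tags with Decapping Pyrophosphohydrolase, 1268757 and 8475181 with Cap-Clip, 10739034 and 1747139 with TAP, and 736236 and 80721 without enzyme. The no-enzyme libraries stood apart from each other: 13.4% of the tags of replicate 1 and 71.2% of those of replicate 2 lay in the 5' regions of genes (the 200 nt before a start codon and the 50 nt after it), against 88.0% to 90.4% in the 6 enzyme-treated libraries. One tag in no-enzyme replicate 2 equals 12.4 CPM (counts scaled to 1000000 tags a library), so results that set an enzyme against no enzyme are given with and without each of these libraries. MFA1, MFA2, STE2, BAR1, AGA2 and STE6, which mark MATa cells, had from 1354 (STE6) to 85242 (MFA2) tags in their 5' regions over the 8 libraries. The alpha-specific genes SAG1, MF(ALPHA)2, MF(ALPHA)1 and STE3 had 48, 27, 16 and 4, and the deleted genes LEU2, URA3 and MET17 had 0.

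Some of the fullest positions are shown with their surroundings, since they carry the contrast reported further on. The sequences were read from the RefSeq R64 genome on the strand of the gene, 30 nt each and 5' to 3', and the capital marks the first base of the tags. The 30 nt that begin at each of these positions occur once in the genome.
The first 4 lie in windows that had more tags with TAP and Cap-Clip than without enzyme, in single positions or in sum. All 4 tags begin with a purine, and at 3 of the 4 a pyrimidine comes before it.
KAR4, 115 nt after the stop codon, chrIII:29051-29051, plus strand: aaaaccaaattgcgcAaggattgattcagt
YDR029W, 94 nt after, chrIV:501508-501508, plus strand: gtcagaaaagaggctAcagctgaaactaag
GTO3, 113 nt after, chrXIII:774128-774128, plus strand: acttggaaggaaaagGagcacgcttgtaag
YPS3, 87 nt after, chrXII:388657-388657, minus strand: tacttaaataagaatAttcctaaaacacac
The next 5 were filled with Decapping Pyrophosphohydrolase and nearly empty with both other enzymes.
PMA1, 90 nt after, chrVII:479820-479820, minus strand: aattttaattttaatTtttttatcaatggg
PMA1, 111 nt after, chrVII:479799-479799, minus strand: atcaatgggaactgaTacactaaaaagaat
RPS20, 97 nt after, chrVIII:75874-75874, plus strand: ttccttttttctcatTttcgcatatagctg
MFA2, 30 nt after, chrXIV:352560-352560, plus strand: caagaggtcaaatcaAtatctaccctttca
MFA1, 18 nt after, chrIV:1385304-1385304, plus strand: tctgcgtacaaaaacGttgttctccctcct
The last 3 were the fullest or among the fullest without enzyme.
RPL36B, 10 nt after, chrXVI:75689-75689, minus strand: cattaaacagcgtgaGggggccacagtcaa
NOP1, 19 nt after, chrIV:428366-428366, plus strand: gaataaaggaaattaGtcaaaagtttctgg
HAC1, 108 nt after, chrVI:76255-76255, plus strand: tttctactgttctgtCtccggttagtgtgt

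The first comparison concerns the share of all tags that began just after a stop codon. With Decapping Pyrophosphohydrolase it was 0.324% (Wilson 95% interval 0.316 to 0.332) and 0.261% (0.256 to 0.267). With Cap-Clip it was 0.140% (0.134 to 0.147) and 0.195% (0.192 to 0.198), with TAP 0.121% (0.119 to 0.124) and 0.114% (0.109 to 0.119), and without enzyme 1.47% (1.44 to 1.498) and 0.503% (0.456 to 0.554). The 4 groups did not overlap: the share was lowest with TAP, next with Cap-Clip, then with Decapping Pyrophosphohydrolase, and highest without enzyme. Means were 0.293% ± 0.0442, 0.167% ± 0.0385, 0.118% ± 0.00552 and 0.986% ± 0.684 for Decapping Pyrophosphohydrolase, Cap-Clip, TAP and no enzyme (SD, n = 2 each). An exact permutation test (2-sided) cannot go below p = 0.33 with 2 libraries a group, and each of the 6 pairs gave this value, before and after Benjamini-Hochberg adjustment over the 6. Intervals here cover counting error only.

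The order reversed for the control when tags were set against the coding sequence just before them. Tags per eligible nt after the stop codon were divided by tags per nt in the last 150 nt of the coding regions of the 4169 genes with at least 50 eligible nt. The ratio was 0.438 and 0.423 with Decapping Pyrophosphohydrolase, 0.339 and 0.361 with Cap-Clip, 0.310 and 0.316 with TAP, and 0.184 and 0.246 without enzyme. In every library the ratio was below 1, and it was lowest without enzyme. It does not show a fall at the stop codon itself. In the 10 nt after this codon the means were 7.68, 4.71, 3.21 and 35.6 CPM per kb, in the same order of groups. In the 10 nt before it they were 6.27, 4.59, 3.18 and 34.4. Only Cap-Clip replicate 1 and TAP replicate 1 were lower after it than before it. Density already fell within the coding region, without enzyme from 116 in the first 50 of the 150 nt to 53.3 in the last 50. On the log2 scale the ratio was higher than without enzyme by 1.02 with Decapping Pyrophosphohydrolase, by 0.72 with Cap-Clip and by 0.56 with TAP. Decapping Pyrophosphohydrolase exceeded TAP by 0.46 and Cap-Clip by 0.30, and Cap-Clip exceeded TAP by 0.16. No pair of groups overlapped, and each gave exact permutation p = 0.33 (2-sided, n = 2 each), the smallest this design allows.

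**Figure D1:**
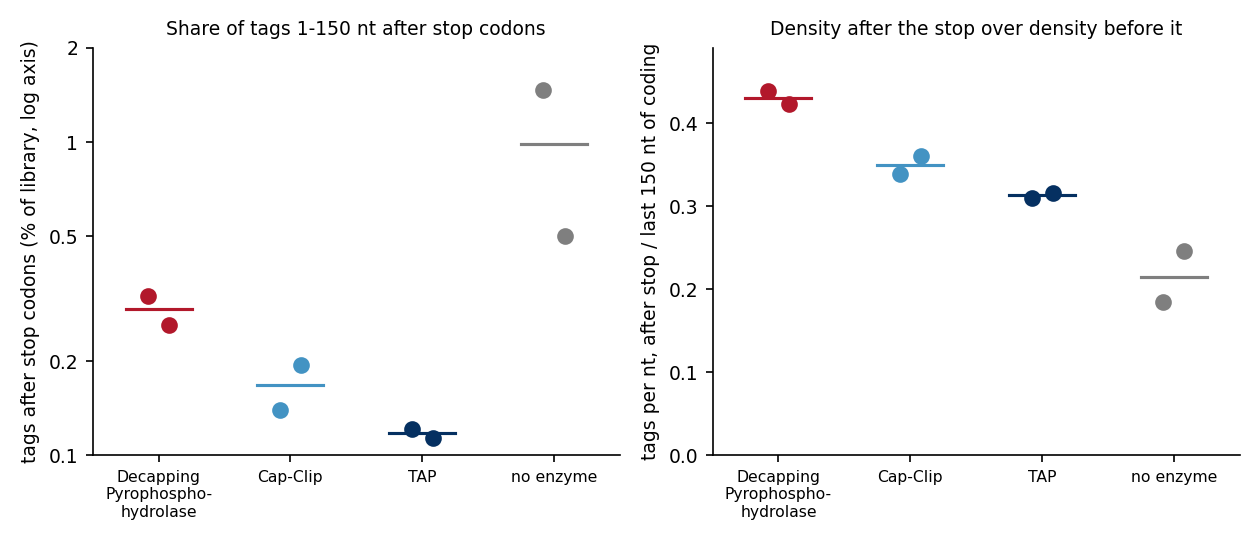
Left, the percentage of each library's tags that began 1 to 150 nt after a stop codon, on a log axis; right, tags per nt after the stop codon divided by tags per nt in the last 150 nt of the coding region. Points are libraries and lines are group means; no enzyme is highest on the left, at 1.47% and 0.503%, and lowest on the right, at 0.184 and 0.246.

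Within the window tags thinned out with distance from the stop codon in every group. In the first 50 nt the density averaged 6.66 ± 1.11 CPM per kb of eligible sequence with Decapping Pyrophosphohydrolase, 3.83 ± 0.925 with Cap-Clip, 2.55 ± 0.0954 with TAP and 26.0 ± 18.8 without enzyme (SD, n = 2 each). In the last 50 nt of the window it averaged 2.96 ± 0.347, 2.10 ± 0.291, 1.58 ± 0.0892 and 8.796 ± 6.16 CPM per kb in the same order of groups. The enzymes drew together with distance. Past 200 and up to 300 nt, outside the windows, the means were 3.34 ± 0.497 CPM per kb with Decapping Pyrophosphohydrolase, 3.99 ± 0.0544 with Cap-Clip, 3.96 ± 0.494 with TAP and 5.73 ± 1.82 without enzyme, so that the Decapping Pyrophosphohydrolase and TAP libraries overlapped there. With each enzyme this mean was above that in the last 50 nt of the window, and without enzyme it was below. With Cap-Clip and TAP it was also above that in the first 50 nt. In the last 50 nt of the coding region the means were 7.95 ± 1.46, 5.61 ± 1.07, 4.23 ± 0.146 and 53.3 ± 45.5 CPM per kb.

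**Figure D2:**
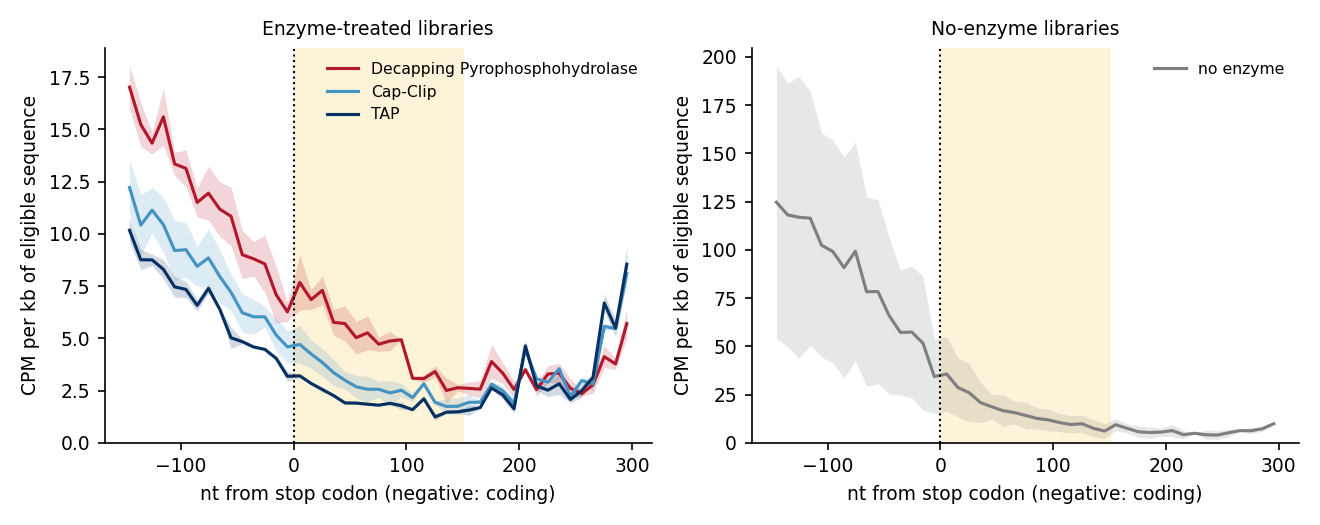
Tag density in CPM per kb of eligible sequence, in steps of 10 nt, from 150 nt before to 300 nt after the stop codon (dotted line), for the enzyme-treated libraries on the left and the no-enzyme libraries on the right, whose vertical scale is larger. Lines are group means, bands span the 2 libraries, and the shaded stretch is the window of 1 to 150 nt; the Decapping Pyrophosphohydrolase line lies above the Cap-Clip and TAP lines through the coding end and most of the window.

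Windows were tested in a fit over all features of the genome (5' regions, gene bodies, noncoding genes and windows) with edgeR's quasi-likelihood test, calling a Benjamini-Hochberg adjusted p under 0.05, 2-sided. Comparisons with no enzyme used library totals over 8 libraries. Of the 4470 windows 226 passed the filter on low counts, 109 of them (48.2%) only through the no-enzyme libraries and 13 (5.75%) only through Decapping Pyrophosphohydrolase. Those that passed only where they are high had to differ, so the counts that follow describe the tested windows and not all windows. The 3 comparisons share the same no-enzyme libraries.

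Few windows had more tags with an enzyme than without. The called windows were 2 of 226 with Decapping Pyrophosphohydrolase (17.4% of all features tested were called higher), 4 with Cap-Clip (34.3% of all features) and 4 with TAP (37.1% of all features). They were the windows of KAR4, YDR029W, NPR3 and YPS3, with YDR029W and NPR3 called for all 3 enzymes and KAR4 and YPS3 for Cap-Clip and TAP. With all 3435 windows kept, 2, 4 and 3 were called higher with Decapping Pyrophosphohydrolase, Cap-Clip and TAP, beside 10.1%, 20.6% and 22.4% of all features. Without no-enzyme replicate 1 the count was 0 for all 3 enzymes, and without no-enzyme replicate 2 it was 5, 4 and 4. With TMM scaling, which moved the median of all features to 2.07, 1.90 and 1.86 on the log2 scale (−0.56, −0.04 and 0.05 with library totals), 72, 17 and 9 windows were called higher.

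The window of KAR4, which encodes a transcription factor of the mating response, held 19.0 and 7.76 CPM with Decapping Pyrophosphohydrolase, 29.2 and 23.9 CPM with Cap-Clip, 27.5 and 21.2 CPM with TAP, and 2.72 and 12.4 CPM without enzyme. Cap-Clip and TAP libraries lay above both no-enzyme libraries, and the Decapping Pyrophosphohydrolase libraries overlapped them. With tags and totals pooled over the 2 libraries of a group, the ratio to the 3 no-enzyme tags was 3.15 for Decapping Pyrophosphohydrolase (exact 95% counting interval 1.03 to 15.7), 6.71 for Cap-Clip (2.27 to 32.8) and 7.24 for TAP (2.46 to 35.3). Pooling gives no-enzyme replicate 2 little weight, and the ratios of mean CPM, in which its 1 tag counts as 12.4 CPM, were 1.77, 3.52 and 3.22. The log2 fold change was 2.77 ± 0.88 with Cap-Clip (SE, adjusted p = 0.0059), 2.70 ± 0.88 with TAP (adjusted p = 0.0067) and 1.74 ± 0.96 with Decapping Pyrophosphohydrolase (adjusted p = 0.109). Without no-enzyme replicate 1 the calls were lost (adjusted p = 0.547 with Cap-Clip and 0.540 with TAP) and the value with Decapping Pyrophosphohydrolase became −0.029. The window lies on the plus strand of chromosome III, and the next start codon on that strand, of RDT1, is 1974 nt from the KAR4 stop codon.

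YDR029W is an open reading frame of no known function, whose own 5' region held 0 CPM in every group. Its window had 17.3 and 12.1 CPM with Decapping Pyrophosphohydrolase, 8.67 and 13.0 CPM with Cap-Clip, 13.4 and 8.59 CPM with TAP, and 1.36 and 0 CPM without enzyme. All 6 enzyme-treated libraries were above both no-enzyme libraries, which held 1 tag between them. Log2 fold changes were 3.52 ± 1.11 with Decapping Pyrophosphohydrolase (adjusted p = 0.0071), 3.22 ± 1.14 with Cap-Clip (adjusted p = 0.0121) and 3.23 ± 1.13 with TAP (adjusted p = 0.0108). That 1 tag gives counting intervals of the pooled ratio from 1.97 to 453, 1.79 to 404 and 1.84 to 413 for the 3 enzymes. The Cap-Clip call was lost without Cap-Clip replicate 2 (adjusted p = 0.0831), the TAP call without TAP replicate 1 (0.0761) and all 3 without no-enzyme replicate 1 (0.302 to 0.376). The gene downstream, RAD28, lies on the other strand and ends 339 nt away.

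NPR3, a subunit of the complex that restrains TORC1 signalling, had 7.82 and 9.20 CPM in its window with Decapping Pyrophosphohydrolase, 9.46 and 12.4 CPM with Cap-Clip, 8.10 and 4.58 CPM with TAP, and 1.36 and 0 CPM without enzyme. All enzyme-treated libraries were higher than those without enzyme, again on 1 no-enzyme tag. Adjusted p was 0.0364 with Decapping Pyrophosphohydrolase (log2 fold change 2.79 ± 1.16), 0.0096 with Cap-Clip (3.20 ± 1.09) and 0.0498 with TAP (2.50 ± 1.18). The call of TAP was lost with the replicate number as a block (adjusted p = 0.0605), those of TAP and Decapping Pyrophosphohydrolase with DESeq2 (0.120 and 0.0863) or without either of their own libraries, that of Cap-Clip without Cap-Clip replicate 2 (0.0661), and all 3 in windows of 1 to 200 nt (0.0522 to 0.237) or without no-enzyme replicate 1 (0.331 to 0.495).

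YPS3, a cell-surface aspartic protease, had 8.94 and 17 CPM with Decapping Pyrophosphohydrolase, 11 and 16.6 CPM with Cap-Clip, 17.1 and 16.0 CPM with TAP, and 4.07 and 0 CPM without enzyme, where 3 tags were counted. The enzyme-treated libraries again lay above the others. The log2 fold change was 1.88 ± 0.88 with Decapping Pyrophosphohydrolase (adjusted p = 0.0613), 2.01 ± 0.87 with Cap-Clip (adjusted p = 0.0349) and 2.19 ± 0.85 with TAP (adjusted p = 0.0198). The Cap-Clip call did not remain with the replicate block (adjusted p = 0.0809), with DESeq2 (0.0706) or without Cap-Clip replicate 2 (0.187), nor the TAP call without TAP replicate 1 (0.0605), nor either without no-enzyme replicate 1 (0.266 and 0.222). The next start codon on the same strand, 524 nt from the stop codon, belongs to YPS1, a protease of the same family.

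GTO3, a glutathione transferase of the omega class, had the fullest window among genes whose own 5' region was empty in every group. It held 25.7 and 29.0 CPM with Decapping Pyrophosphohydrolase, 22.1 and 22.9 CPM with Cap-Clip, 28.3 and 20.03 CPM with TAP, and 14.9 and 12.4 CPM without enzyme. All 6 enzyme-treated libraries lay above both no-enzyme libraries, while the TAP libraries overlapped those of Decapping Pyrophosphohydrolase and lay on either side of those of Cap-Clip. The fold changes against no enzyme missed the threshold: 0.91 ± 0.60 (adjusted p = 0.177), 0.63 ± 0.61 (0.329) and 0.76 ± 0.60 (0.229) on the log2 scale for Decapping Pyrophosphohydrolase, Cap-Clip and TAP. HOR7 begins its coding region 737 nt downstream on the same strand.

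With library totals, most of the tested windows had fewer tags with an enzyme than without. The called windows were 160 of 226 with Decapping Pyrophosphohydrolase (47.5% of all features tested were called lower), 205 with Cap-Clip (48% of all features) and 214 with TAP (48.1% of all features). Without the filter they were 734, 949 and 1048 of 3435, beside 40.4%, 42.2% and 42.8% of all features. The median log2 fold change over the 226 was −2.26, −3.15 and −3.88, where gene bodies had −3.62, −3.76 and −3.90. Without the filter, which 109 of the 226 had passed only through the no-enzyme libraries, the medians were −1.44, −1.95 and −2.69 over the 3435 windows, against −3.56, −3.70 and −3.84 in gene bodies. With TMM scaling the medians over the 226 became 0.445, −0.774 and −1.57. With Decapping Pyrophosphohydrolase 72 windows were then higher and 23 lower, so the direction for this enzyme depended on the scaling. Leaving out no-enzyme replicate 1 left 8, 20 and 40 windows lower, leaving out replicate 2 gave 425, 482 and 502, and TMM scaling gave 23, 66 and 136.

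The fullest windows without enzyme were those of RPL38, PMA1, NOP1, RPS30A and GAR1, where RPL38 and RPS30A encode ribosomal proteins and NOP1 and GAR1 parts of small nucleolar ribonucleoproteins. RPL38 had 14.5 and 7.76 CPM with Decapping Pyrophosphohydrolase, 14.2 and 17.6 CPM with Cap-Clip, 14.3 and 12.6 CPM with TAP, and 284 and 37.2 CPM without enzyme. Its log2 fold change was −4.20 ± 0.56 with Decapping Pyrophosphohydrolase (adjusted p = 2.75e-07), −3.60 ± 0.54 with Cap-Clip (9.55e-07) and −3.86 ± 0.54 with TAP (3.03e-07). Both no-enzyme libraries were above all others, yet without no-enzyme replicate 1 none of the 3 passed (adjusted p = 0.276, 0.392 and 0.284). GAR1 had 7.82 and 12.9 CPM with Decapping Pyrophosphohydrolase, 7.88 and 14.9 with Cap-Clip, 9.13 and 9.16 with TAP, and 109 and 86.7 CPM without enzyme. Among the windows with the largest falls with TAP were LSM1, of the complex that starts mRNA decapping, with 2 TAP tags against 15 without enzyme (ratio of pooled tags over pooled totals 0.0087, counting interval 0.0010 to 0.0375), and TIF4631, for the initiation factor eIF4G, with 3 against 14 (0.0140, interval 0.0026 to 0.0502). With Cap-Clip, URA5 of pyrimidine synthesis had 1 tag against 15 (0.0056), and with Decapping Pyrophosphohydrolase the forkhead factor gene HCM1 had 0 tags against 6 and BER1 had 1 against 13 (0.0119). LSM1, TIF4631, URA5, HCM1 and BER1 passed the filter only through the no-enzyme libraries, so that their direction was set by the filter.

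The enzymes were compared with each other over 6 libraries with TMM-scaled sizes. Without a filter on low counts, 319 of 3313 windows (9.63%) had more tags with Decapping Pyrophosphohydrolase than with TAP and 2 had fewer, where 15.6% of all features were called higher and 14.7% lower. Against Cap-Clip 158 windows (4.77%) were higher and 9 lower (10.4% and 11.8% of all features). The median log2 fold change over these windows was 0.95 against TAP, with 0.48 in gene bodies, and 0.22 against Cap-Clip, with 0.33 in gene bodies. The filter on low counts left 143 windows, 64 of which (44.8%) passed only through Decapping Pyrophosphohydrolase and had to differ in that direction, so the counts over the 143 describe the tested windows and nothing is read from them. They were 108 higher and 2 lower against TAP (24.2% and 23.1% of all features) and 81 higher and 3 lower against Cap-Clip (17% and 18.5%), with medians of 2.03 and 1.23 beside 0.55 and 0.38 in gene bodies. With library totals in place of TMM, 96 were higher and 2 lower than with TAP, and 66 higher and 8 lower than with Cap-Clip, although the medians of all features moved to −0.31 in both.

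The fullest of all windows was that of PMA1, which encodes the plasma membrane proton pump. It held 102 and 114 CPM with Decapping Pyrophosphohydrolase, 11 and 14.2 CPM with Cap-Clip, 6.98 and 9.16 CPM with TAP, and 124 and 136 CPM without enzyme. Decapping Pyrophosphohydrolase stood near the control and both other enzymes about an order of magnitude below. It was 4.27 ± 0.20 higher than TAP on the log2 scale (adjusted p = 1.41e-13) and 3.38 ± 0.19 higher than Cap-Clip (adjusted p = 5.49e-12). Against no enzyme its difference was −0.24 ± 0.44 (adjusted p = 0.629), where Cap-Clip gave −3.29 ± 0.49 (7.42e-07) and TAP −4.03 ± 0.50 (6.28e-08); with TMM scaling that of Decapping Pyrophosphohydrolase turned to 2.43. The 5' region of PMA1, as defined above, varied alongside. Its means were 147 CPM with Decapping Pyrophosphohydrolase, 14.0 with Cap-Clip, 16.3 with TAP and 173 without enzyme. Tags that begin further upstream are not counted in this region. The means thus do not show how many capped starts PMA1 had with any enzyme. The part of the 5' region in the difference after the stop codon was not tested.

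RPS20, for a protein of the small ribosomal subunit, and MFA2, for the a-factor pheromone, had the next fullest windows. RPS20 held 43.6 and 67 CPM with Decapping Pyrophosphohydrolase, 14.2 and 14.9 CPM with Cap-Clip, 9.13 and 9.16 CPM with TAP, and 93.7 and 12.4 CPM without enzyme. Decapping Pyrophosphohydrolase was 3.05 ± 0.22 above TAP (log2, adjusted p = 4.08e-10) and 2.31 ± 0.22 above Cap-Clip (4.99e-08), and the no-enzyme libraries lay on either side of it. MFA2 held 48.6 and 53.5 CPM with Decapping Pyrophosphohydrolase, 16.6 and 17.8 CPM with Cap-Clip, 9.96 and 9.73 CPM with TAP, and 42.1 and 61.9 CPM without enzyme, so that Decapping Pyrophosphohydrolase lay within the range of the control. It was 2.78 ± 0.20 above TAP (adjusted p = 2.76e-10) and 1.91 ± 0.19 above Cap-Clip (1.07e-07). In contrast to the 5' region counted for PMA1, those of both genes were full with every enzyme. Means were 4200, 3440 and 2939 CPM for RPS20 and 3993, 2748 and 2672 CPM for MFA2 with Decapping Pyrophosphohydrolase, Cap-Clip and TAP. Without enzyme they were 1826 and 1758 CPM. The MFA2 mean without enzyme came from 331 CPM in replicate 1 and 3184 CPM in replicate 2, which exceeded every Cap-Clip and TAP library.

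The largest fold changes of Decapping Pyrophosphohydrolase over TAP belonged to thinner windows. Of those named here TPM1, SCS2, NOP58, CWP2, YPS1, PFY1 and TMA19 passed the filter only through Decapping Pyrophosphohydrolase. Their direction was thus set by the filter. Without it their fold changes kept their sign and stayed past the threshold, but the same counts enter that fit, so this adds no support. TPM1, the gene for tropomyosin, had 7.82 and 8.33 CPM with Decapping Pyrophosphohydrolase against 0.37 and 0 CPM with TAP (4.98 ± 0.55, adjusted p = 2.14e-07). SCS2, of the endoplasmic reticulum membrane, had 7.82 and 4.02 CPM against 0.09 and 1.14 CPM (4.73 ± 0.72). NOP58, of the box C/D small nucleolar ribonucleoprotein, RPL39, of the large ribosomal subunit, and CWP2, a cell wall mannoprotein, followed with 4.61 ± 0.50, 4.55 ± 0.36 and 4.44 ± 0.46. Over Cap-Clip the leaders besides SCS2 and PMA1 were YPS1 (3.39 ± 0.63), the profilin gene PFY1 (3.36 ± 0.39) and TMA19, a ribosome-associated protein (3.23 ± 0.33). The call of SCS2 over TAP was lost without TAP replicate 1 (adjusted p = 0.0844), and those of SCS2 and YPS1 over Cap-Clip without Cap-Clip replicate 2 (0.157 and 0.160). TMA19 had 24.0 and 18.1 CPM with Decapping Pyrophosphohydrolase, 0.79 and 3.19 CPM with Cap-Clip, 2.33 and 2.29 CPM with TAP, and 17.7 and 24.8 CPM without enzyme, where its Decapping Pyrophosphohydrolase libraries overlapped the control.

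Few windows went the other way. KAR4 was lower with Decapping Pyrophosphohydrolase than with TAP by −0.69 ± 0.28 (log2, adjusted p = 0.0470), and YBR298C-A by −1.63 ± 0.64 (adjusted p = 0.0384). With the replicate block neither call remained. At YBR298C-A, 7.22% of the tags lay at positions whose 30 nt occur more than once in the genome. YBR298C-A was also lower than with Cap-Clip (−1.78 ± 0.65, adjusted p = 0.0337), as were the ribosomal stalk gene RPP1A (−1.03 ± 0.40, 0.0476) and RPL41B (−0.81 ± 0.30, 0.0360), and the block raised that count of 3 to 5. Each of these calls was lost without Decapping Pyrophosphohydrolase replicate 2 (adjusted p from 0.255 to 0.926), and also without TAP replicate 1 against TAP or without Cap-Clip replicate 1 against Cap-Clip, where RPP1A and RPL41B were also lost without Cap-Clip replicate 2 (0.352 and 0.108). GTO3 differed little between enzymes, being 0.50 ± 0.19 higher with Decapping Pyrophosphohydrolase than with TAP (adjusted p = 0.0376), a call that library totals ended (0.12, adjusted p = 0.732), as did leaving out either TAP library or Decapping Pyrophosphohydrolase replicate 2 (0.0706 to 0.252).

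Between Cap-Clip and TAP edgeR called 0 of the 143 windows in either direction, as it called 0.0112% of all features higher and 0% lower, and 63 windows had an unadjusted p under 0.05. DESeq2 also called 0, with 19 at an unadjusted p under 0.05. The median log2 fold change over the 143 was 0.78 (0.17 in gene bodies), and without the filter 0.37 (0.15 in gene bodies). PMA1 had 0.90 ± 0.24 (adjusted p = 0.155) and CWP2 2.27 ± 0.54 (adjusted p = 0.138), so the fit did not resolve differences of this size after adjustment. With library totals 1 window was called higher, and without the filter 13 of 3313 were higher and 0 lower (0.101% and 0.141% of all features).

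**Figure D3:**
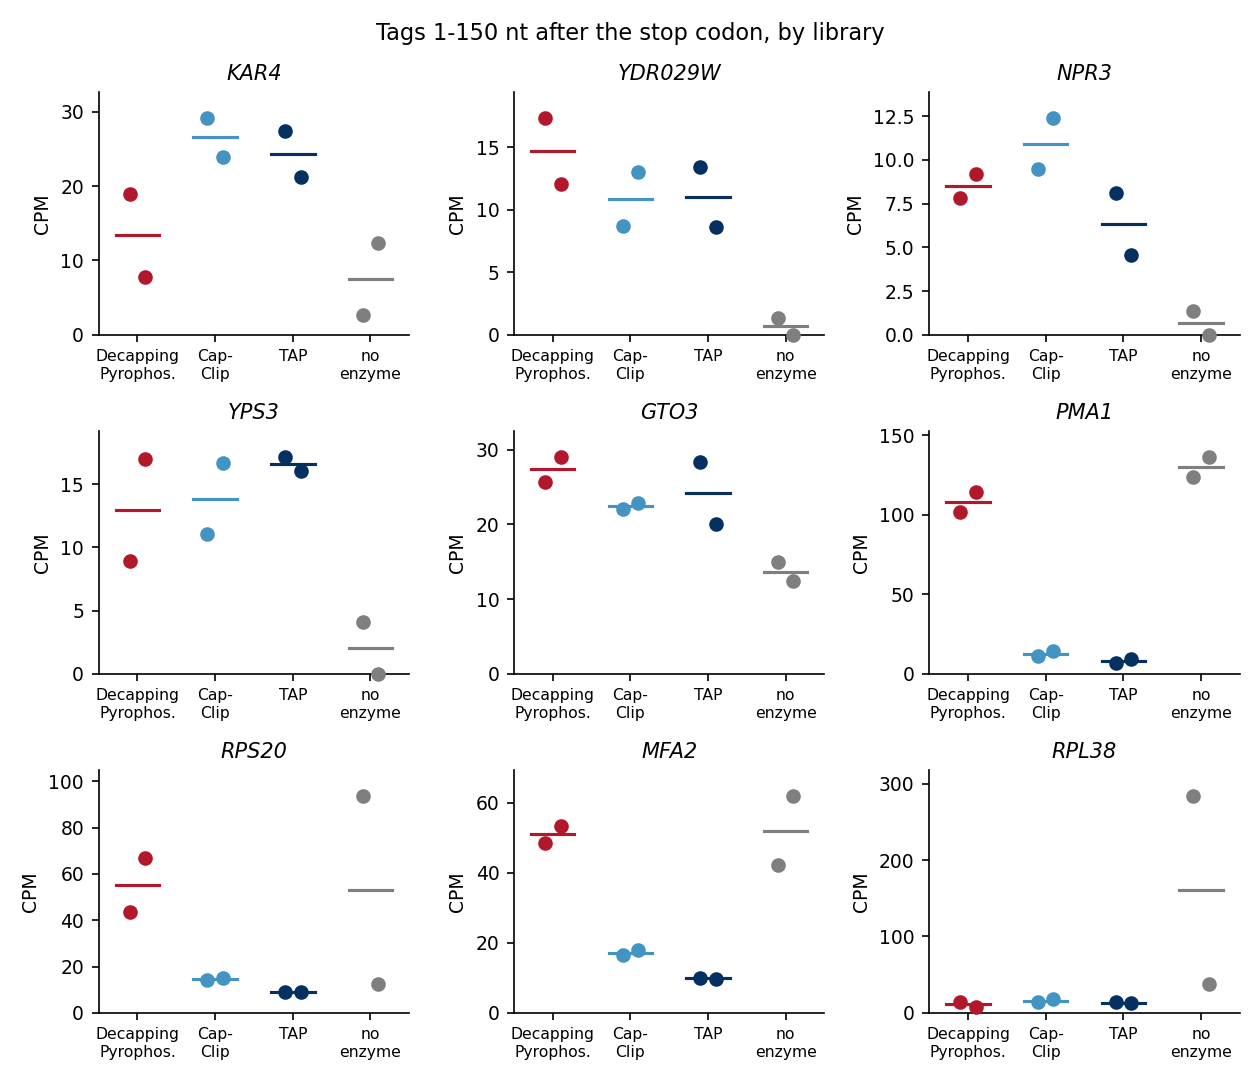
CPM of 9 windows in each of the 8 libraries, with points for libraries and lines for group means; the vertical scales differ and start at 0. KAR4, YDR029W, NPR3 and YPS3 have their lowest means without enzyme, PMA1, RPS20 and MFA2 have lower means with Cap-Clip and TAP than in the other groups, and RPL38 is highest without enzyme.

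Single positions were then tested over 8 libraries among 69821 positions of the genome with at least 10 tags in 1 library and 20 in all, of which 127 were after a stop codon. Called higher than without enzyme were 7 of the 127 with Decapping Pyrophosphohydrolase (9.74% of all positions tested), 2 with Cap-Clip (19.1%) and 3 with TAP (21.1%). All positions called higher reached 10 tags only in enzyme-treated libraries, so the cut on tags favoured that direction. Called lower were 41 (3.53% of all positions), 45 (4.78%) and 45 (4.97%). The counts rested on no-enzyme replicate 1. Without it 0 positions were higher in all 3 comparisons, and 0, 1 and 2 were lower with Decapping Pyrophosphohydrolase, Cap-Clip and TAP, while without replicate 2 it was 9, 4 and 5 higher and 40, 44 and 45 lower.

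One position of YDR029W was called with every enzyme. The adenine 94 nt after its stop codon held 25 and 28 tags with Decapping Pyrophosphohydrolase, 8 and 54 with Cap-Clip, 71 and 8 with TAP, and 0 and 0 without enzyme. Against a floor of 3 tags over both no-enzyme libraries, or 3.67 CPM, and with tags and totals of each enzyme pooled likewise, it was at least 2.74-fold higher with Decapping Pyrophosphohydrolase (adjusted p = 0.0117), at least 1.73-fold higher with Cap-Clip (0.0348) and at least 1.72-fold higher with TAP (0.0351). This 1 position held 72.6%, 51.2% and 49.7% of the window's tags with the 3 enzymes. It is preceded by a thymine, as its sequence shows. Leaving out 1 TAP or Cap-Clip library could end the call (adjusted p = 0.148 without TAP replicate 1, 0.0505 and 0.108 without Cap-Clip replicates 1 and 2).

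In KAR4 and GTO3 the fullest positions went with TAP and Cap-Clip. The guanine 113 nt after the GTO3 stop codon had 6 and 19 tags with Decapping Pyrophosphohydrolase, 11 and 49 with Cap-Clip, 95 and 15 with TAP, and 0 and 0 without enzyme. It was called with Cap-Clip (at least 1.68-fold, adjusted p = 0.0325) and TAP (at least 2.40-fold, 0.0107) and not with Decapping Pyrophosphohydrolase (0.1055), although the control did have 12 tags elsewhere in the same window. The Cap-Clip call was lost without either Cap-Clip library (0.0579 and 0.0553). In the KAR4 window the guanine at 111 nt had 7 and 6 tags with Decapping Pyrophosphohydrolase, 5 and 45 with Cap-Clip, 62 and 8 with TAP, and 0 and 0 without enzyme, and was called with TAP (at least 1.53-fold, adjusted p = 0.0387), though not without TAP replicate 1 (0.126). The adenine 4 nt further on, at 115 nt, had 9 and 7, 19 and 83, 124 and 12, and 1 and 1 tags in the same order and was not called with any enzyme. It held 42.5% of the window's tags with Cap-Clip and 40.96% with TAP.

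The positions called with Decapping Pyrophosphohydrolase other than that of YDR029W were at PMA1, RPS20, MFA2 and MFA1. Each of them reached the 10 tags needed for testing only in Decapping Pyrophosphohydrolase libraries. The cut thus favoured their direction, and the p-values describe positions selected in this way. The thymine 90 nt after the PMA1 stop codon, inside a run of thymines, had 41 and 69 tags with Decapping Pyrophosphohydrolase, 0 and 4 with Cap-Clip, 1 and 0 with TAP, and 0 and 1 without enzyme (adjusted p = 0.0019 against no enzyme). At RPS20 the thymine at 97 nt had 15 and 69 tags with Decapping Pyrophosphohydrolase, 0 and 1 with Cap-Clip, 2 and 0 with TAP, and 0 and 0 without enzyme, at least 4.34-fold higher than without enzyme (0.0012). The adenine 30 nt after the MFA2 stop codon had 29 and 63 tags with Decapping Pyrophosphohydrolase, 0 and 0 with Cap-Clip, 1 and 0 with TAP, and 1 and 0 without enzyme (0.0052). These positions were filled in both Decapping Pyrophosphohydrolase libraries and held at most 4 tags in any other, even where the deepest Cap-Clip and TAP libraries had several times more tags in all. The guanine 18 nt after the stop codon of MFA1, the second a-factor gene, repeated this with 9 and 26, 0 and 1, 0 and 0, and 0 and 0 tags (at least 1.81-fold, 0.0415). The thymine 111 nt after the PMA1 stop codon had 11 and 24 tags with Decapping Pyrophosphohydrolase, 0 and 2 with Cap-Clip, 0 and 1 with TAP, and 0 and 0 without enzyme (at least 1.81-fold, 0.0393). With the replicate block the calls at MFA1 and at 111 nt of PMA1 were lost (adjusted p = 0.110 and 0.0937), as they were without Decapping Pyrophosphohydrolase replicate 2. The fullest position in these windows held 19.0%, 27.0% and 33.7% of the tags with Decapping Pyrophosphohydrolase at PMA1, RPS20 and MFA2, against 4.9% of 102, 18.6% of 70 and 5.6% of 36 tags without enzyme. The control also had tags at other full positions of PMA1: the thymine at 91 nt had 18 and 38 tags with Decapping Pyrophosphohydrolase and 0 and 2 without enzyme, and the adenine at 124 nt, the fullest of the control, had 20 and 25 against 4 and 1.

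The positions that were fullest without enzyme lay nearer the stop codon in part. At RPL36B, for a large-subunit protein, the guanine 10 nt after the stop codon had 9 and 8 tags with Decapping Pyrophosphohydrolase, 7 and 37 with Cap-Clip, 53 and 9 with TAP, and 60 and 3 without enzyme. Its log2 fold changes were −4.46 ± 0.51, −3.98 ± 0.46 and −3.87 ± 0.45. It was also the fullest position of this window in every enzyme group, with 27.4%, 24.6% and 37.1% of the window's tags against 60.0% without enzyme. NOP1 at 19 nt had 7 and 8, 5 and 33, 36 and 3, and 41 and 3 tags. HAC1, the transcription factor of the unfolded protein response, had 4 and 4, 1 and 10, 7 and 3, and 22 and 2 tags at 108 nt.

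**Figure D4:**
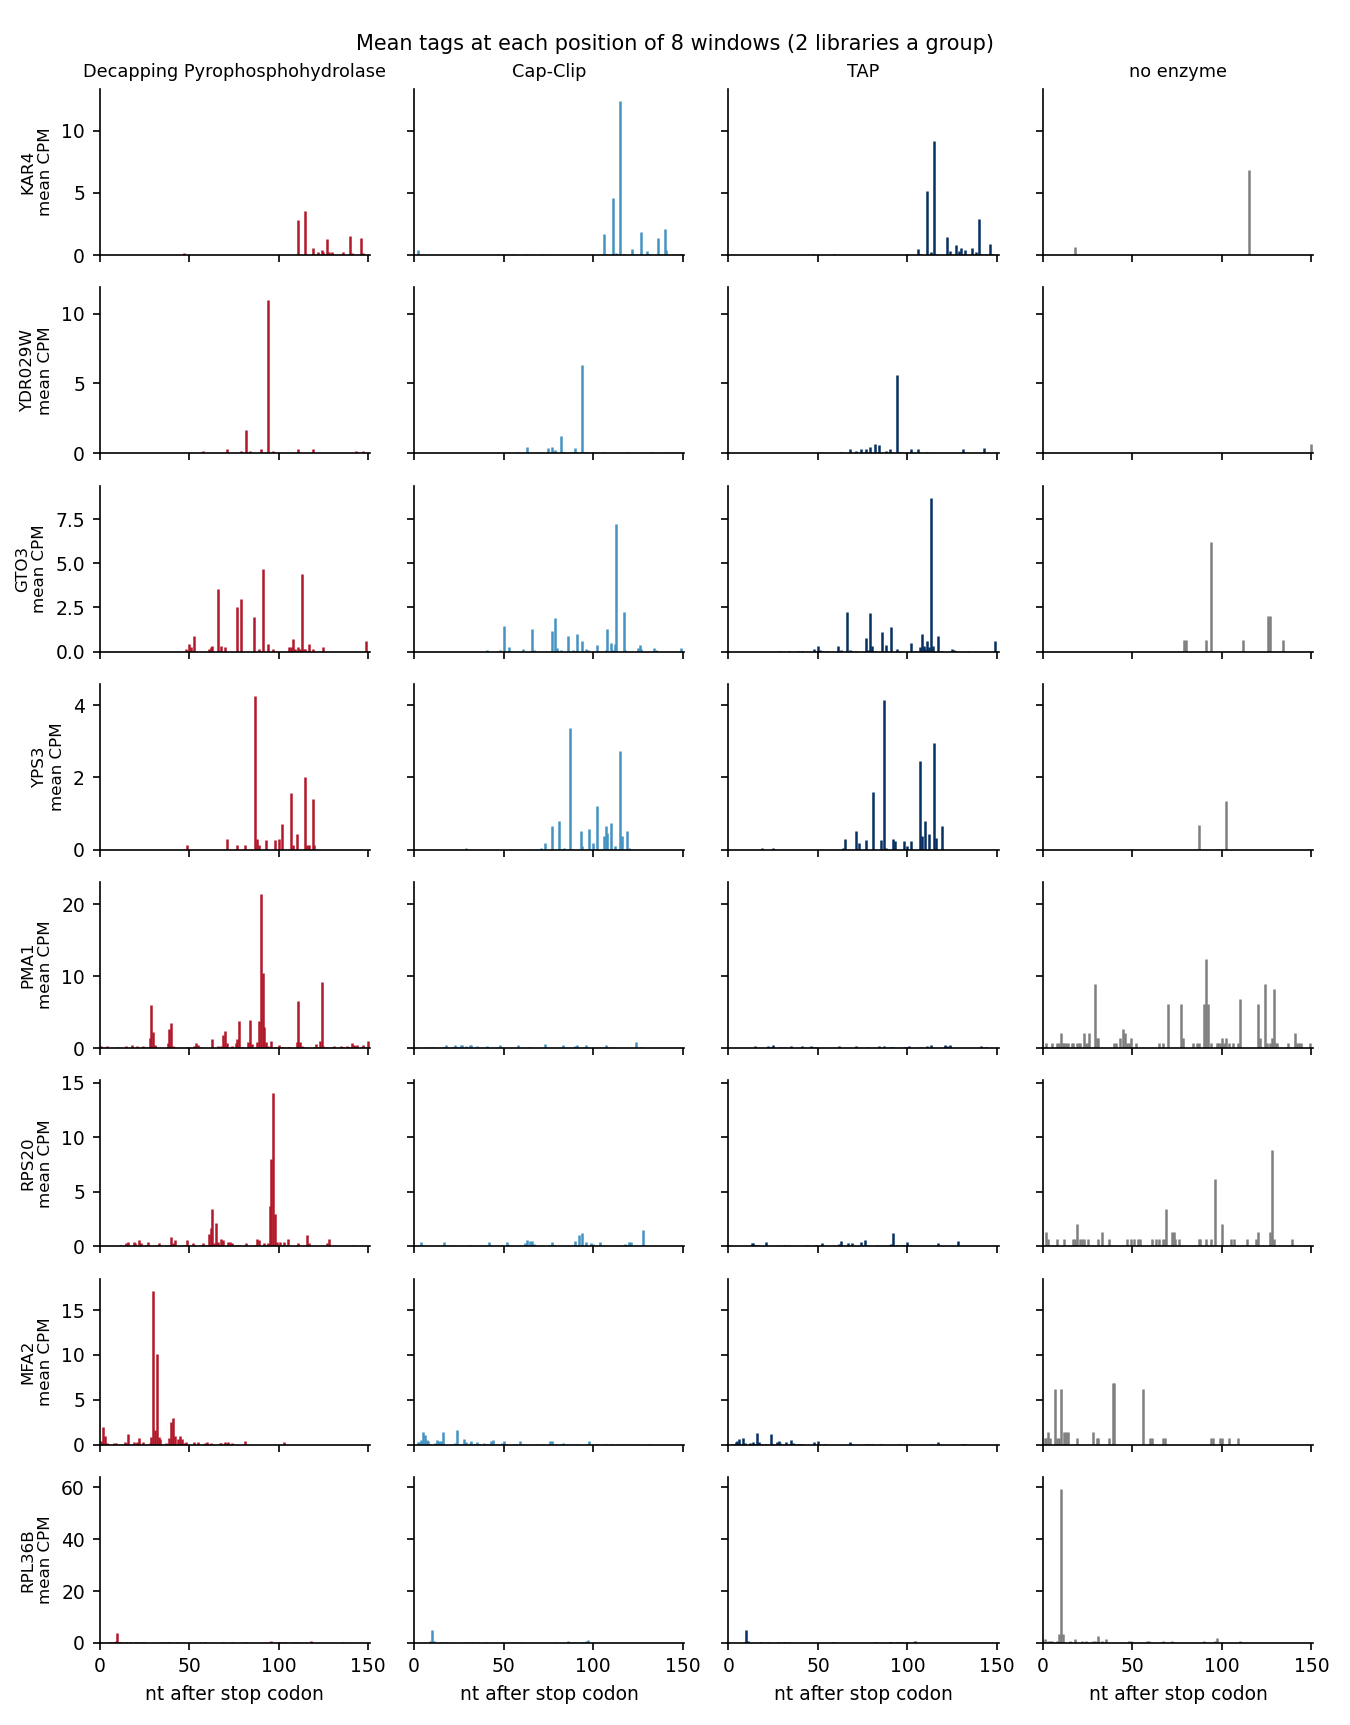
Mean CPM at each nt after the stop codon in 8 windows (down the page) and 4 groups (across), 2 libraries a group, with 1 vertical scale per window. KAR4, YDR029W and YPS3 are tallest at 115, 94 and 87 nt with each of the 3 enzymes, GTO3 is tallest at 91 nt with Decapping Pyrophosphohydrolase and at 113 nt with Cap-Clip and TAP, PMA1, RPS20 and MFA2 show tall positions with Decapping Pyrophosphohydrolase that are low or empty with Cap-Clip and TAP, and RPL36B shows 1 position that is tallest without enzyme.

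Positions filled in 1 library were often found again in others. Of the 91 positions with at least 5 tags in Decapping Pyrophosphohydrolase replicate 1, 85 (93.4%) had a tag in replicate 2, 50 (54.9%) in TAP replicate 1 and 35 (38.5%) in no-enzyme replicate 1. Of the 200 such positions in TAP replicate 1, 190 had a tag in Cap-Clip replicate 2, 115 (57.5%) in TAP replicate 2, 133 (66.5%) in Decapping Pyrophosphohydrolase replicate 2 and 93 (46.5%) in no-enzyme replicate 1. Of the 136 such positions in no-enzyme replicate 1, 122 (89.7%) had a tag in TAP replicate 1 and 25 (18.4%) in no-enzyme replicate 2. TAP replicate 1 and Cap-Clip replicate 2 are the deepest libraries and no-enzyme replicate 2 is the thinnest, and the part of depth in these shares was not tested.

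The bases at which tags began, which the choice of positions did not use, differed between enzymes. A pyrimidine before and a purine at the first base, the common initiation step, was found in 26.4% and 25.3% of tags after stop codons with Decapping Pyrophosphohydrolase, in 37.4% and 33.6% with Cap-Clip, in 39.7% and 36.0% with TAP, and in 23.2% and 21.2% without enzyme. Of all eligible positions 24.5% have this step, a share of positions and not of tags. By positions with a tag the shares were 26.6% and 25.7%, 35.0% and 29.7%, 33.9% and 33.7%, and 24.1% and 21.5% in the same order. By tags, Cap-Clip and TAP libraries lay above the others and overlapped each other (exact permutation p = 0.667), while the remaining pairs did not overlap (p = 0.33, or 0.40 adjusted over 6). The mean share differed by −11.97 percentage points between Decapping Pyrophosphohydrolase and TAP and was 3.65 points higher with Decapping Pyrophosphohydrolase than without enzyme. In 5' regions, where most capped ends lie, the step was found in 83.8% and 80.9% of tags with Decapping Pyrophosphohydrolase, 90.9% and 89.6% with Cap-Clip, 89.5% and 91.0% with TAP, and 46.0% and 82.2% without enzyme. In the last 150 nt of coding regions the shares were 24.1% and 23.7%, 30.4% and 27.9%, 32.0% and 29.5%, and 21.9% and 20.2% in the same order.

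Thymine as the first base went with Decapping Pyrophosphohydrolase. It began 42.5% and 41.1% of the positions with a tag in its libraries, 27.9% and 31.2% with Cap-Clip, 27.5% and 26.1% with TAP, and 28.7% and 34.6% without enzyme, the last of these with a Wilson interval from 30.0 to 39.5. Thymine makes up 35.8% of all eligible positions, so Decapping Pyrophosphohydrolase lay above this share and the other libraries below it, no-enzyme replicate 2 only within its interval. Among positions with at least 5 tags the contrast was wider: thymine began 58.2% of 91 and 56.1% of 155 positions with Decapping Pyrophosphohydrolase, 1 of 10 and 20.8% of 236 with Cap-Clip, 10.5% of 200 and 9.1% of 11 with TAP, and 23.5% of 136 in no-enzyme replicate 1. The 30 nt around these positions were 38.8% and 39.2% thymine with Decapping Pyrophosphohydrolase, 24.3% and 27.7% with Cap-Clip, 27.2% and 21.5% with TAP, and 27.3% in no-enzyme replicate 1. Thymine-first positions were also more frequent with Decapping Pyrophosphohydrolase in the last 150 nt of coding regions (27.8% and 27.2%, against 21.0% and 21.7% with Cap-Clip, 19.9% and 18.9% with TAP and 20.6% and 20.8% without enzyme).

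**Figure D5:**
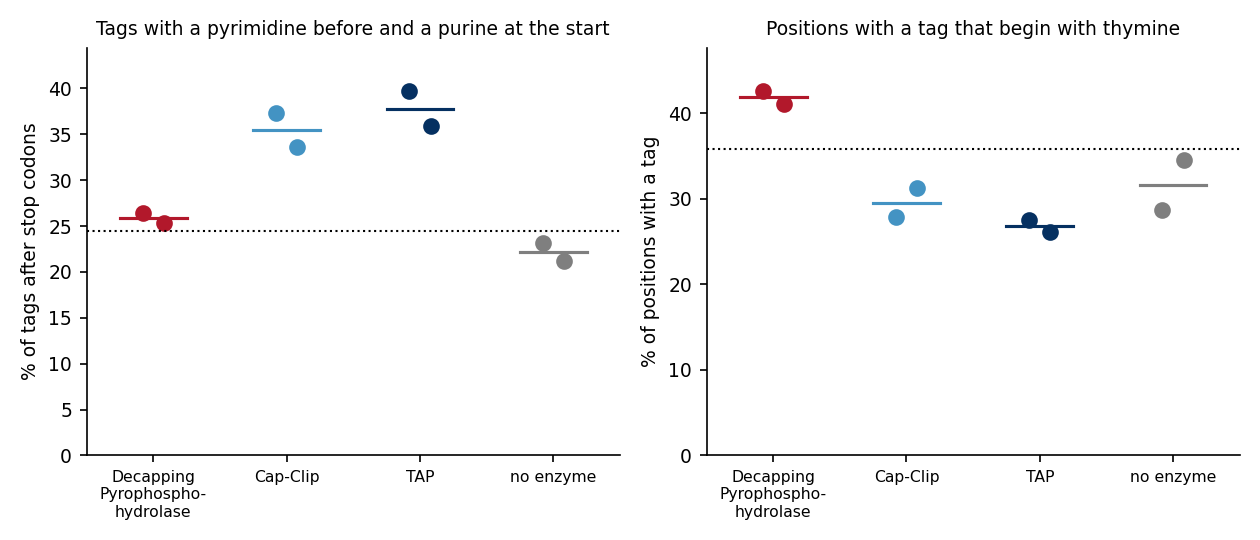
Left, the percentage of tags after stop codons that begin with a purine preceded by a pyrimidine; right, the percentage of positions with a tag that begin with thymine. Points are libraries, lines are group means, and dotted lines mark the share among all eligible positions, 24.5% and 35.8%; Cap-Clip and TAP are highest on the left and Decapping Pyrophosphohydrolase is highest on the right.

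Windows were also divided by the gene that follows. The next gene lay on the other strand for 3031 windows, which hold 70.9% of eligible nt. Their tags made up 62.5% of all tags after stop codons with Decapping Pyrophosphohydrolase, 62.4% with Cap-Clip, 60.1% with TAP and 59.6% without enzyme (means of 2 libraries). For 1068 windows (19.6% of eligible nt) the next start codon on the same strand lay over 400 and up to 1000 nt away, and the means were 25.8%, 26.7%, 29.1% and 30.3%. The 371 windows with that start codon further away (9.53% of eligible nt) took 11.8%, 10.9%, 10.7% and 10.1%. In all 4 groups tags were thus denser where a gene on the same strand followed, within 1000 nt or further away, than before a gene on the other strand. Some windows before a same-strand gene within 1000 nt lose their far positions to the rule on 400 nt upstream, and tags were denser near the stop codon. Windows with that gene further away do not lose positions to this rule. The part of this in the difference was not tested.

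Host genes were grouped by function to describe where these tags arise. The 112 windows of ribosomal protein genes, all with a tag, held 20.1% of tags after stop codons with Decapping Pyrophosphohydrolase, 21.5% with Cap-Clip, 18.3% with TAP and 16.9% without enzyme, whereas the 5' regions of these genes held 42.8%, 34.9%, 33.4% and 38.4% of 5' region tags. Their gene bodies held 21.9%, 16.8%, 15.1% and 12.9% of gene body tags in the same order. Of 54 tested windows, 12 passed the filter only through the no-enzyme libraries. Lower than without enzyme were 30, 43 and 50 and 0 were higher, where 160, 205 and 214 of all 226 tested windows were lower. Medians were −1.62, −2.43 and −3.20 beside −2.26, −3.15 and −3.88 for all tested windows. Of 45 tested between enzymes, 15 of which passed the filter only through Decapping Pyrophosphohydrolase, 32 were higher with it than with TAP and 22 higher and 2 lower than with Cap-Clip, where 108, 81 and 3 of all 143 tested windows were. Without the filter 57 of the 112 were higher than with TAP and 32 higher and 3 lower than with Cap-Clip, with medians of 1.74 and 0.73 beside 0.95 and 0.22 for all windows.

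Cell wall genes, among them SED1, HSP150 and CWP2, have 23 windows, of which 11 were tested. Between enzymes 9 of the 11 passed the filter only through Decapping Pyrophosphohydrolase. All 11 were called higher with it than with TAP and than with Cap-Clip, where 108 and 81 of all 143 tested windows were. Without the filter 13 and 12 of the 22 windows with a tag in these libraries were higher, beside 9.63% and 4.77% of all windows, with medians of 2.32 and 1.54 on the log2 scale beside 0.95 and 0.22. Over TAP this share, 59.1%, was close to those of histones (60%), glycolysis and fermentation (57.1%) and ribosomal proteins (50.9%). It was 43.75% for heat shock and chaperones, 35% for translation factors, 29.0% for intron-containing genes, 18.4% for amino acid synthesis and 13.5% for respiration. Over Cap-Clip cell wall genes had 54.5%, and the next highest list, histones, 30%. Against no enzyme 7 of the 11 tested were lower with Decapping Pyrophosphohydrolase, 10 with Cap-Clip and 11 with TAP, where 160, 205 and 214 of all 226 tested windows were. SED1, a structural wall protein, had 12.9 and 14.4 CPM with Decapping Pyrophosphohydrolase, 3.94 and 8.495 CPM with Cap-Clip, 4.00 and 10.9 CPM with TAP, and 81.5 and 24.8 CPM without enzyme. UTH1, of the SUN family of wall-associated proteins, had 22.9 and 27.9 CPM with Decapping Pyrophosphohydrolase against 3.35 and 1.72 CPM with TAP (3.48 ± 0.29, adjusted p = 2.61e-09).

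Histone genes have 10 windows, of which 7 were tested against no enzyme, 2 of them passing the filter only through the no-enzyme libraries. Lower were 6 with Decapping Pyrophosphohydrolase, 7 with Cap-Clip and 7 with TAP, where 160, 205 and 214 of all 226 tested windows were. Of 5 tested between enzymes, 4 were higher with Decapping Pyrophosphohydrolase than with TAP and 1 than with Cap-Clip, beside 108 and 81 of all 143 tested windows, and without the filter 6 and 3 of the 10 were. HHT2, a gene for histone H3, had 16.2 and 11.2 CPM with Decapping Pyrophosphohydrolase, 9.46 and 8.26 CPM with Cap-Clip, 5.21 and 5.15 CPM with TAP, and 57.0 and 37.2 CPM without enzyme, with no overlap between the 4 groups. Glycolysis and fermentation had 5 tested windows, respiration 5, translation factors 3 and amino acid synthesis 2. With TAP and Cap-Clip all of these were lower than without enzyme, and with Decapping Pyrophosphohydrolase 4, 5, 3 and 2 were. In respiration all 5, and in glycolysis and in translation factors 2 each, passed the filter only through the no-enzyme libraries, and most of all tested windows were lower, as given above. Of the 251 windows of intron-containing genes 40 were tested, 8 of which passed the filter only through the no-enzyme libraries. Lower were 24, 35 and 38 with Decapping Pyrophosphohydrolase, Cap-Clip and TAP, beside 160, 205 and 214 of all 226 tested windows. None of the 18 windows of heat shock and chaperone genes passed the filter.

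Across the 4169 windows with at least 50 eligible nt, tags after the stop codon followed the gene's own 5' region and its own body loosely. Spearman's rho between mean CPM in the window and in the 5' region was 0.427 with Decapping Pyrophosphohydrolase, 0.441 with Cap-Clip, 0.373 with TAP and 0.424 without enzyme. Between the window and the gene body it was 0.404, 0.388, 0.334 and 0.393 in the same order. These values are across genes that share a library and its depth, and are given as a description only. How far tags in a window gather at 1 position was compared at equal depth in 12 windows with at least 10 tags in each of the 6 enzyme-treated libraries. After thinning to 10 tags the fullest position held 30.0% and 28.3% of them with Decapping Pyrophosphohydrolase, 29.2% and 29.2% with Cap-Clip and 25.8% and 29.2% with TAP, and the groups overlapped (exact p from 0.667 to 1). Among 85 windows with at least 10 tags in each of 5 libraries, the share was 24.5% and 22.9% with Decapping Pyrophosphohydrolase, 18.1% in Cap-Clip replicate 2, 19.1% in TAP replicate 1 and 21.8% in no-enzyme replicate 1. Both Decapping Pyrophosphohydrolase libraries were the higher there, with 1 library in each other group and no test.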

How the data were processed

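The table deposited by the authors holds counts: whole numbers of 5' ends per position and strand in 8 columns, matched to samples by name, with 0 columns unused. Reads of 50 nt followed a random barcode of 8 nt, ligated before poly(A) selection and copying from random primers, per the labels' protocols. Novoalign and the build R64 (sacCer3) are named in the submitters' processing notes. Whether equal barcodes were collapsed is not given in the sources used here (65536 barcodes are possible and the highest count was 57150). If they were not, counts include PCR copies.

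Positions were read as 1-based. Stop codons and genes came from the RefSeq R64 annotation. Each position was given to the nearest upstream stop codon, and counts were summed per window. CPM use library totals. edgeR 4.0.16 in R 4.3.3 tested enzymes against no enzyme over 8 libraries with library totals, since TMM takes a change of most features as none, and enzymes against each other over 6 libraries with TMM. DESeq2 1.42.0 was an alternative. Python 3.11.15, numpy 2.4.6, pandas 2.3.3, scipy 1.17.1 and matplotlib 3.10.9 did the rest. The count test was checked on simulated counts.

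Same-numbered libraries are aliquots of 1 culture, per the series' design text, so the numbers pair the libraries. The replicate differences of any 2 groups correlated between −0.114 and 0.0964 over 9174 features. The fits had no replicate term, and the block was an alternative. Replicates were further apart than counting error, the chi-square over its degrees of freedom being 11.5 to 14.4. P-values measure the spread between these libraries.

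The text names, for each comparison with no enzyme, up to 10 higher and 10 lower windows with the largest fold change among those called, with at least 5 CPM in the higher group and both pairs in that direction, and 5 and 5 for enzyme pairs. It also names the 20 fullest windows with an enzyme, the 5 fullest without, 15 and 5 positions likewise, the 3 fullest windows of each list and the next gene. The members, lists and tests were chosen with earlier results of these data known. Other alternatives were other scalings, no filter, windows of 1 to 100 and 1 to 200 nt, 1000 nt upstream of start codons left out, fits over other sets of libraries, and each replicate left out.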

Additional observations from a re-analysis of the deposited data

How the results depend on the processing

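In this paragraph values follow the order Decapping Pyrophosphohydrolase, Cap-Clip and TAP against no enzyme. For windows called higher (2, 4 and 4), TMM gave 72, 17 and 9, windows of 1 to 100 nt 2 with Cap-Clip and 2 with TAP, fits of only the 4 libraries compared 2 with Cap-Clip, and DESeq2 1 with Decapping Pyrophosphohydrolase. For windows called lower (160, 205 and 214), TMM gave 23, 66 and 136, no filter 734, 949 and 1048, leaving out 1000 nt upstream of start codons 103, 133 and 140, and fits of 4 libraries 125 with Cap-Clip and 135 with TAP. Leaving out 1 library at a time gave 0 to 5, 0 to 4 and 0 to 4 higher and 8 to 425, 20 to 482 and 40 to 503 lower windows, and 0 to 9, 0 to 4 and 0 to 5 higher and 0 to 40, 1 to 45 and 2 to 45 lower positions. For Decapping Pyrophosphohydrolase over TAP, 108 higher became 319 without the filter and 65 to 184 with a library left out, and 2 lower became 0 with DESeq2, with the replicate block, with windows of 1 to 100 nt and with all 8 libraries, 1 with 1000 nt left out, and 0 to 2 with a library left out. Over Cap-Clip, 81 higher became 30 with DESeq2, 158 without the filter, 49 with 1000 nt left out and 38 to 91 with a library left out, and 3 lower became 0 with DESeq2 and with all 8 libraries, 8 with library totals, 9 without the filter, 5 with the replicate block, 1 with windows of 1 to 100 nt, 1 with 1000 nt left out, and 0 to 10 with a library left out. For Cap-Clip over TAP, 0 higher became 1 with library totals and 13 without the filter. The replicate block changed no other count by over 1.5 times. With the pairing of Cap-Clip and no-enzyme libraries crossed, chosen after seeing the data, 4 windows were higher and 206 lower. Shares, density ratios and base steps kept their sign in each of their alternatives. Concentration thinned to 20 tags, in 2 windows, gave −6.25 points for Decapping Pyrophosphohydrolase over TAP, against 1.67 with 10 tags. For single windows, KAR4 with Decapping Pyrophosphohydrolase ranged from −0.029, without no-enzyme replicate 1, to 2.31 with a library left out, and PMA1 to 2.43 with TMM. Causes were not tested, except that no filter tests more windows. The depth of no-enzyme replicate 2, with 406 tags after stop codons, limits every comparison with the control.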
